A study of Mus musculus with 8 samples.

Results

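The 9 CXC chemokine ligands described here are *Pf4*, *Ppbp*, *Cxcl1*, *Cxcl2*, *Cxcl9*, *Cxcl10*, *Cxcl13*, *Cxcl14* and *Cxcl16*, taken by name from the 55573 genes of the count table. Microglia had been sorted at postnatal day 60 from 4 control mice and 4 mice of the genotype *Smad2/3* fl/fl;*Cx3cr1* Cre, called mutants here, and each mouse gave 1 RNA library. The labels call the controls wild-type littermates, while the Methods state that control mice of the study generally carried Cre with a floxed allele, so both groups may carry the *Cx3cr1* Cre allele. That allele expresses Cre from the *Cx3cr1* locus in microglia and in related macrophages. Per the Methods, cells were sorted by CD45 and CD11b after a Percoll gradient, and those analysed were positive for tdTomato, a reporter of Cre. The mice were backcrossed to C57BL6/J. The Methods name another deposit for their *Smad2/3* mutant microglia, and it was assumed from the genotype and cell type that these details hold for the libraries used here.

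Chemokines are small secreted proteins that steer migrating cells, and the CXC group is named for the spacing of a pair of conserved cysteines. Ligands such as CXCL1 and CXCL2 act on CXCR2 and recruit neutrophils, CXCL9 and CXCL10 are interferon-induced ligands of CXCR3 that attract T cells, and CXCL13 draws B cells through CXCR5. PF4 and PPBP are best known as contents of platelet granules, although *Pf4* is also expressed in macrophages at the borders of the brain. CXCL16 differs from the others in being made as a transmembrane protein, from which ADAM proteases release a soluble ligand of CXCR6.

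*Pf4*, *Cxcl1*, *Cxcl2*, *Cxcl10*, *Cxcl14* and *Cxcl16* were higher in mutants than in controls, and *Ppbp*, *Cxcl9* and *Cxcl13* did not pass the test. Thus 6 of 9 members were called higher and 0 lower by edgeR's quasi-likelihood test at an adjusted p under 0.05. Of the 20153 tested genes, 4.36% were called higher and 7.97% lower. The members were chosen with earlier results of these data known, so this contrast is a description and not an independent test. The median log2 fold change of the members was 3.13, against 0.01 over all tested genes. That median is the value of *Cxcl9*, a member that was not called. In the 6 called members every mutant library lay above every control library, a pattern seen in 9.04% of tested genes. Levels are given as CPM, the reads of a gene relative to a scaled library size. DESeq2 also called 6 members higher, against 10.1% of its tested genes. All 9 members passed the low-count filter of at least 10 counts in at least 4 libraries.

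**Figure D1:**
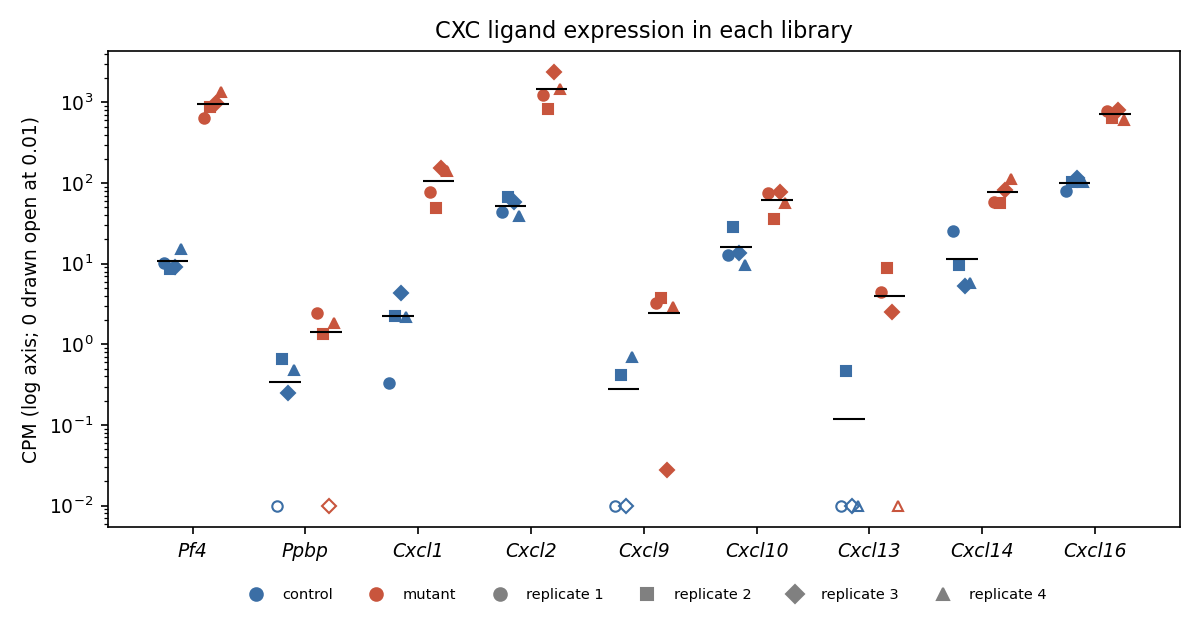
CPM (log axis) of the 9 ligands in each control (blue) and mutant (red) library, with a symbol per replicate number, bars at the group means and open symbols for libraries with no count. The groups are apart for *Pf4*, *Cxcl1*, *Cxcl2*, *Cxcl10*, *Cxcl14* and *Cxcl16*, and overlap for *Ppbp*, *Cxcl9* and *Cxcl13*.

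A few facts of the libraries bear on every value below. Libraries held 35639502 to 41946479 counts, so a count of 3 corresponds to 0.0647 to 0.0838 CPM. Between the targeted genes, *Smad3* was lower in mutants (log2 fold change -1.33, SE 0.36, adjusted p = 0.0429, edgeR) and *Smad2* was not called (-0.34, SE 0.22, adjusted p = 0.340). Whole-gene counts do not isolate the deleted exons. *Xist* lay between 99.3 and 183 CPM in controls and at most 0.561 CPM in mutants, and *Ddx3y* of the Y chromosome lay between 9.73 and 59.7 CPM in mutants and at most 0.224 CPM in controls, so genotype and sex cannot be told apart in these libraries. All 8 microglia markers examined were lower in mutants, with a summed level of 5260 to 7610 CPM against 31000 to 47300 CPM. Among the 8, *Csf1r* was still at 2330 to 4200 CPM in every mutant library. *Cx3cr1*, also among them, is the locus of the Cre allele, and the part of that allele in its level was not tested. In such bulk samples, fewer cells of a type and less RNA per cell cannot be told apart.

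Of the 9 members, 7 lie on chromosome 5, and *Ppbp*, *Pf4*, *Cxcl1* and *Cxcl2* lie within 137421 bases of each other there (GRCm38). The sequences before the start of *Pf4*, *Cxcl1*, *Cxcl2* and *Cxcl10* are shown as examples of several motifs, of which *Cxcl1* and *Cxcl2* share the same NF-κB match. *Pf4* and *Cxcl1* had the largest increases among the members, and *Cxcl10* had the smallest among those called. Each run is the 250 bases before the RefSeq start on GRCm38.p6, written 5′ to 3′ on the gene's strand. They cover chr5:90772185-90772434 (+) for *Pf4*, chr5:90890995-90891244 (+) for *Cxcl1*, chr5:90903649-90903898 (+) for *Cxcl2* and chr5:92348890-92349139 (-) for *Cxcl10*. Capitals mark GAGGAAGT, an ETS-type motif read on the other strand, in *Pf4*, matches to the NF-κB consensus in *Cxcl1* and *Cxcl2*, and in *Cxcl10* the NF-κB matches and an interferon regulatory factor core, GAAANNGAA, which is the first run of capitals.
Pf4: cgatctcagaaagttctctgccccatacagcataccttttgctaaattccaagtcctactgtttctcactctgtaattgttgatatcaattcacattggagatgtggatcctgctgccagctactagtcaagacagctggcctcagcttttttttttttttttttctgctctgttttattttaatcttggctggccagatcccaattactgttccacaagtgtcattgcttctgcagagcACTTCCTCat
Cxcl1: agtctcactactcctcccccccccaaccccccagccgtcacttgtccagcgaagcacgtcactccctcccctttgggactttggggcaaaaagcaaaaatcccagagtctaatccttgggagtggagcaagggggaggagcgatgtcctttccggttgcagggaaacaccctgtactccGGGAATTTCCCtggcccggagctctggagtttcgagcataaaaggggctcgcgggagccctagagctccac
Cxcl2: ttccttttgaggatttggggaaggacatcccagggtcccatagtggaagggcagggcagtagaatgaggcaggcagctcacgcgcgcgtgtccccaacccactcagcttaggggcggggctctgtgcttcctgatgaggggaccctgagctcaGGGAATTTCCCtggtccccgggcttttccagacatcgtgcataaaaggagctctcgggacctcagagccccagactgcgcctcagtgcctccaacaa
Cxcl10: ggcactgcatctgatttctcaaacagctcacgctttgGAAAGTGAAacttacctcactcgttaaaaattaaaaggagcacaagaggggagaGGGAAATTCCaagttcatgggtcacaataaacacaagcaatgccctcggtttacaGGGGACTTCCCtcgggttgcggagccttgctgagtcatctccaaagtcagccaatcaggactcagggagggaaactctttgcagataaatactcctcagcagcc

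Both strands were searched in the promoters of 8 members found in the RefSeq table, and *Cxcl16* was not among them. NF-κB matches stood in 3 of the 8 member windows, against 7.25% of 32851 promoter windows of the same length. *Cxcl1* and *Cxcl2* carried the same letters, GGGAATTTCC, starting 71 and 97 bases before the start, and each overlapped a match on the other strand. The matches in *Cxcl10* started 159, 104 and 103 bases before the start, and the last pair overlapped. The interferon regulatory factor core GAAANNGAA stood in *Cxcl9*, *Cxcl10* and *Cxcl14*, 3 of 8 windows, against 7.13% of promoters. GAGGAAGT stood in *Pf4* alone, 1 of 8 against 2.44%, beginning 10 bases before the start. TTCNNNGAA, a STAT motif, was found in *Cxcl14* (7.02% of promoters) and TGANTCA, an AP-1 motif, in *Ppbp* and *Cxcl10* (6.75%). CAGAC, a short motif bound by SMAD proteins, was found in *Ppbp*, *Cxcl2* and *Cxcl13*, 3 of 8 windows, against 42.2% of promoters. These matches describe letters only.

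*Pf4* (ENSMUSG00000029373, chr5:90772435-90773383, + strand) encodes platelet factor 4, or CXCL4, a ligand that binds heparin. Its level was 651, 875, 981 and 1360 CPM in mutants 1 to 4 and 10.1, 8.63, 9.17 and 15.4 CPM in controls 1 to 4. The lowest mutant library was 42.3 times the highest control library. The means were 968 ± 298 and 10.8 ± 3.10 CPM (SD, n = 4 each), a ratio of 89.3, and the log2 fold change was 6.48 (SE 0.34, adjusted p = 2.72e-05, edgeR). Ranked by log2 fold change from the highest down, it stood at place 24 of all tested genes.

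*Ppbp* (ENSMUSG00000029372, chr5:90768518-90770063, + strand) encodes pro-platelet basic protein, or CXCL7, a neutrophil attractant stored with PF4 in platelets, and its start lies 3917 bases before that of *Pf4*. It was measured at 2.46, 1.34, 0 and 1.82 CPM in mutants 1 to 4 and at 0, 0.650, 0.252 and 0.484 CPM in controls 1 to 4. A library of each group held no count, and the ranges overlapped. The log2 fold change of 2.01 had a 95% interval from -1.17 to 5.19 (SE 1.41, adjusted p = 0.392, edgeR), so at these counts the interval holds both no difference and a large one.

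As both are platelet genes, markers of platelets and megakaryocytes were examined beside them. Of 10 such markers, 5 were tested, and against the background shares given above 0 were called higher and 2 lower, *Gp9* and *Itgb3*. Their summed level was 4.62 to 13.9 CPM in mutants and 56.7 to 117 CPM in controls, and these 2 genes made up most of the control sum, *Gp9* at 32.9 to 80.4 CPM and *Itgb3* at 18.7 to 28.6 CPM. *Itga2b* was counted in every library, at 2.33 to 6.19 CPM in mutants and 2.91 to 10.4 CPM in controls, and was not called (adjusted p = 0.877, edgeR). Further markers reached at most 3.13 CPM (*Treml1*), 1.45 CPM (*Gp1ba*), 1.23 CPM (*Gp5* and *Tubb1*), 0.104 CPM (*Gp6*) and 0.0647 CPM (*Gp1bb*) in any library. The part of platelet RNA in the levels of *Pf4* and *Ppbp* was not tested. Of 8 markers of macrophages at the brain's borders, 6 were called higher and 0 lower (7 and 0 by DESeq2), against the background shares given above. Their sums were 927 to 1220 CPM in mutants and 42.7 to 95.9 CPM in controls. Among them *Mrc1*, which encodes CD206, lay between 243 and 391 CPM in mutants and between 7.8 and 16.8 CPM in controls, *Lyve1* stayed at or below 6.68 CPM in every library (log2 fold change 1.86, adjusted p = 0.109, edgeR) and *F13a1* was not called (0.19, adjusted p = 0.789). The part of such cells in the level of *Pf4* was not tested either.

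*Cxcl1* (ENSMUSG00000029380, chr5:90891241-90893115, + strand) encodes a neutrophil attractant that signals through CXCR2. It was measured at 78.5, 49.5, 153 and 142 CPM in mutants 1 to 4 and at 0.336, 2.24, 4.28 and 2.20 CPM in controls 1 to 4. The lowest mutant library was 11.6 times the highest control library. The means were 106 ± 49.8 and 2.26 ± 1.61 CPM (SD, n = 4 each), and the log2 fold change was 5.55 (SE 0.71, adjusted p = 0.00135, edgeR).

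*Cxcl2* (ENSMUSG00000058427, chr5:90903871-90905938, + strand), a close relative with the same receptor, was measured at 1230, 820, 2360 and 1450 CPM in mutants 1 to 4 and at 43.5, 67.8, 58.4 and 39.1 CPM in controls 1 to 4. The groups did not overlap, and mutant replicate 3 stood highest and mutant replicate 2 lowest, as for *Cxcl1*. The means of 1470 ± 650 and 52.2 ± 13.3 CPM (SD, n = 4 each) gave a log2 fold change of 4.81 (SE 0.38, adjusted p = 9.84e-05, edgeR). Of its 50-base words, 5.84% occur in transcripts of other genes, mainly *Cxcl3*.

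*Cxcl3*, another CXCR2 ligand whose gene lies between *Pf4* and *Cxcl1*, is not among the 9 but was examined with the other CXC ligands. It was measured at 87.7, 64.3, 169 and 109 CPM in mutants 1 to 4 and at 3.36, 8.09, 5.39 and 4.46 CPM in controls 1 to 4. The mutant libraries took the same order as for *Cxcl2*, and the log2 fold change was 4.34 (SE 0.39, adjusted p = 2.15e-04, edgeR). *Cxcl5* had 8 and 5 counts in mutants 1 and 2 and no count in the other libraries, and *Cxcl15* had none in any library.

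**Figure D2:**
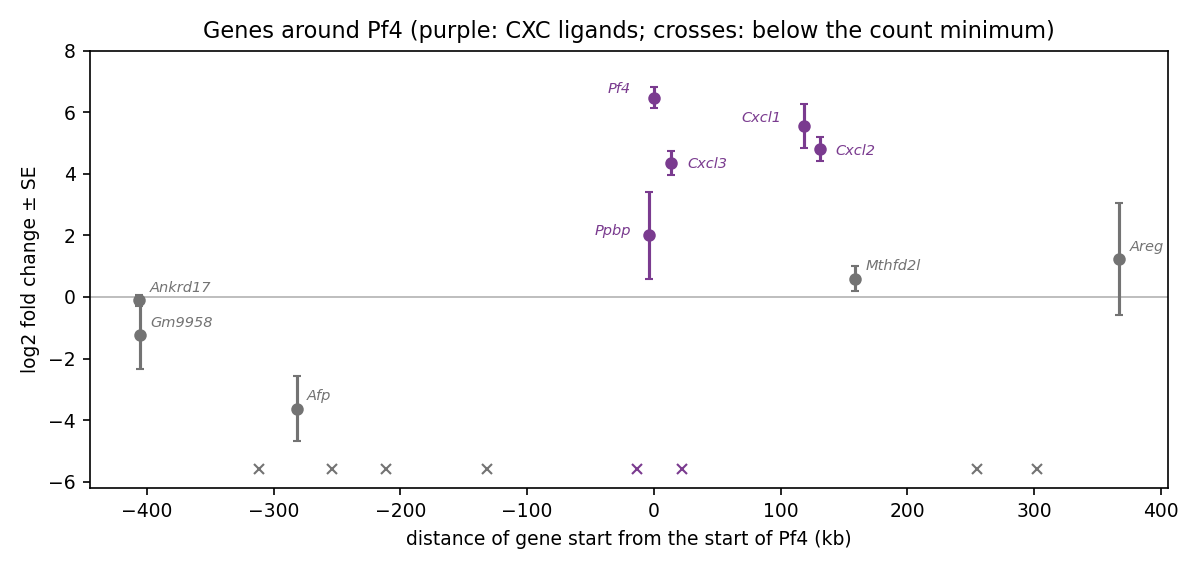
Log2 fold change with its standard error for the genes within 500 kb of *Pf4*, placed by the distance of their start from that of *Pf4* in kb, with CXC ligands in purple and genes below the count minimum as crosses. *Pf4*, *Cxcl1*, *Cxcl2* and *Cxcl3* lie above 4 and the tested genes outside the family have no call.

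The neighbourhood of *Pf4* held 17 other protein-coding genes whose start lies within 500000 bases. Of the 9 tested, 3 were called higher, *Cxcl3*, *Cxcl1* and *Cxcl2*, and 0 lower. Those outside the chemokine family gave no call. *Ankrd17* had a log2 fold change of -0.11 (SE 0.17, adjusted p = 0.722, edgeR) and *Mthfd2l*, the nearest tested gene beyond *Cxcl2*, one of 0.60 (SE 0.40, adjusted p = 0.371, edgeR). *Afp* was lower in each mutant library than in any control library, at 0.0276 to 1.09 against 2.47 to 6.53 CPM, and was not called (-3.63, SE 1.05, adjusted p = 0.0545, edgeR).

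*Cxcl10* (ENSMUSG00000034855, chr5:92346638-92348889, - strand) encodes an interferon-induced ligand of CXCR3. It was measured at 76.0, 36, 78.1 and 57.1 CPM in mutants 1 to 4 and at 12.7, 28.6, 13.4 and 9.67 CPM in controls 1 to 4. The groups were apart by a narrow margin, with the lowest mutant library at 1.26 times the highest control library, control replicate 2. The means were 61.8 ± 19.6 and 16.1 ± 8.50 CPM (SD, n = 4 each), and the log2 fold change of 1.94 was the smallest among the 6 called members (SE 0.38, adjusted p = 0.0115, edgeR). Its exons share 133 bases with *Art3*, which was measured at a mean of 0.620 CPM in mutants and 1.231 CPM in controls.

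*Cxcl9* (ENSMUSG00000029417, chr5:92321347-92328079, - strand), its neighbour and fellow CXCR3 ligand, was measured at 3.22, 3.73, 0.0278 and 2.87 CPM in mutants 1 to 4 and at 0, 0.416, 0 and 0.698 CPM in controls 1 to 4. Mutant replicate 3 held 1 count against 104 to 173 in the other mutant libraries, and it lay below control replicates 2 and 4. The log2 fold change of 3.13 had a 95% interval from -0.39 to 6.65 (SE 1.56, adjusted p = 0.224, edgeR). *Cxcl17* had at most 6 counts in any library. *Cxcl11*, the remaining interferon-induced relative, is annotated as a polymorphic pseudogene and had 28 counts in mutant 1, 1 in control 2 and 0 elsewhere. Of its 50-base words, 40.4% occur in transcripts of other genes, mainly *Gm2673*. Around *Cxcl10*, 14 of 17 genes within the same distance were tested, and 0 were called higher and 1 lower, *Scarb2* (-0.73, SE 0.18, adjusted p = 0.0293, edgeR).

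*Cxcl13* (ENSMUSG00000023078, chr5:95956951-95961068, + strand) encodes the B-cell attractant that binds CXCR5. Its counts were 173, 416, 90 and 0 in mutants 1 to 4 and 0, 18, 0 and 0 in controls 1 to 4, or at most 8.98 CPM. Transcripts were thus counted in 3 of 4 mutants and in 1 of 4 controls, with mutant replicate 4 at 0. The log2 fold change of 5.05 (SE 1.91, 95% interval 0.74 to 9.35) did not pass the adjusted threshold (adjusted p = 0.119, edgeR), and it changed to 10.26 without control replicate 2, where every remaining control was at 0.

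*Cxcl14* (ENSMUSG00000021508, chr13:56288643-56296551, - strand) encodes a ligand best known from epithelia and neurons. It was measured at 58.6, 57.4, 81.2 and 111 CPM in mutants 1 to 4 and at 25.2, 9.54, 5.23 and 5.83 CPM in controls 1 to 4. Mutants lay above controls in every library, with control replicate 1 the nearest. The means were 77.0 ± 25.1 and 11.5 ± 9.36 CPM (SD, n = 4 each), and the log2 fold change was 2.75 (SE 0.52, adjusted p = 0.00974, edgeR). Control replicate 1 also had the highest summed level of 11 neuronal, astrocyte and oligodendrocyte markers, 4180 CPM against 541 to 1460 CPM in the other controls. Of those 11 markers 0 were called by edgeR or DESeq2, and 0 had an unadjusted p under 0.05. The marker sums of mutants 1 to 4 were 3540, 1920, 1070 and 1180 CPM. Mutants 1 and 2, with the highest sums, had the lowest *Cxcl14* levels among the mutants. With the marker score as a covariate, a fit chosen after seeing the data, the log2 fold change of *Cxcl14* was 2.80 (adjusted p = 0.0076, edgeR). Without control replicate 1 that fold change was 3.49 (adjusted p = 7.84e-04, edgeR). The part of RNA from neurons, astrocytes and oligodendrocytes in the level of *Cxcl14* was not tested.

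*Cxcl16* (ENSMUSG00000018920, chr11:70453983-70459984, - strand) was measured at 791, 647, 814 and 612 CPM in mutants 1 to 4 and at 79.2, 104, 115 and 104 CPM in controls 1 to 4. It varied least among the members, with a coefficient of variation of 14.2% in mutants and 15% in controls. The means were 716 ± 102 and 100 ± 15.1 CPM (SD, n = 4 each), and the log2 fold change was 2.83 (SE 0.18, adjusted p = 4.83e-05, edgeR). Its exons share 552 bases with those of *Zmynd15*, looked up after its values were seen, which had means of 72.3 CPM in mutants and 3.754 CPM in controls. The counts are not stranded, so reads in the shared bases cannot be assigned to either gene. The proteases that shed CXCL16 were not called by edgeR, 1 of the 2 having an unadjusted p under 0.05 and a call by DESeq2, *Adam17*. The log2 fold change was -0.48 (SE 0.24, adjusted p = 0.225, edgeR) for *Adam10* and -1.04 (SE 0.31, adjusted p = 0.0578, edgeR) for *Adam17*, which was at 37.0 to 105 CPM in mutants and 106 to 153 CPM in controls.

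*Cxcl12*, the ligand of CXCR4, is another of the remaining CXC ligands. It was measured at 0.156, 0.151, 0 and 1.88 CPM in mutants 1 to 4 and at 5.29, 1.95, 2.52 and 4.14 CPM in controls 1 to 4. Controls lay above mutants without overlap, and the log2 fold change of -2.67 was not called (SE 1.21, adjusted p = 0.182, edgeR). Of the 6 other CXC ligands, 2 were tested and 1, *Cxcl3*, was called higher.

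**Figure D3:**
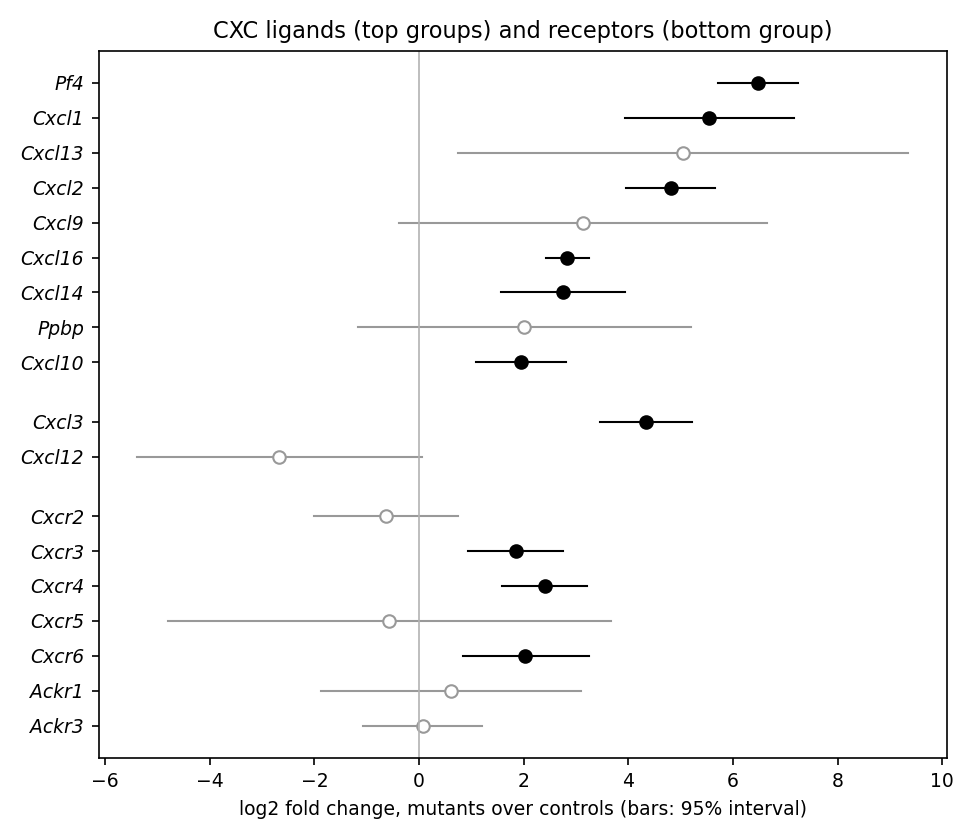
Log2 fold change of mutants over controls with its 95% interval for the 9 ligands (top), 2 other tested CXC ligands (middle) and 7 tested receptors (bottom), with filled points for genes called by edgeR at an adjusted p under 0.05. *Pf4* has the largest value at 6.48, and among the 9 ligands the intervals of *Ppbp* and *Cxcl9* cross 0. The intervals of *Cxcl12*, *Cxcr2*, *Cxcr5*, *Ackr1* and *Ackr3* also cross 0.

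To compare the ligands with each other, CPM were divided by the exon length of each gene in kilobases. In mutants *Pf4* led with 1340 ± 413 CPM per kilobase, followed by *Cxcl2* with 709 ± 314 and *Cxcl16* with 237 ± 33.6 (SD, n = 4 each). *Pf4* stood above *Cxcl2* in all 4 mutant libraries although their ranges overlapped, and *Cxcl2* and *Cxcl16* did not overlap. Below the range of *Cxcl16* came *Cxcl1* at 56.4, *Cxcl14* at 42.1 and *Cxcl10* at 27.4 CPM per kilobase, each overlapping the next of these. *Cxcl13*, *Ppbp* and *Cxcl9*, at 3.47, 1.30 and 0.816 CPM per kilobase, lay below the range of *Cxcl10* and overlapped each other.

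In controls the order of the leading ligands was another. *Cxcl16* came first with 33.3 ± 4.99 CPM per kilobase, then *Cxcl2* with 25.2 ± 6.43 and *Pf4* with 15 ± 4.30 (SD, n = 4 each). Each of these overlapped the next, although *Cxcl16* exceeded *Cxcl2* in 4 of 4 control libraries. *Cxcl10* at 7.15 and *Cxcl14* at 6.27 CPM per kilobase overlapped too, and *Cxcl1* followed at 1.21, below the range of *Cxcl14*. *Ppbp*, *Cxcl13* and *Cxcl9* each averaged 0.320 CPM per kilobase or less.

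Summed over the 9 members, the levels were 1877, 1908, 2934 and 2960 CPM per kilobase in mutants 1 to 4 and 80.91, 99.42, 90.28 and 84.03 CPM per kilobase in controls 1 to 4. *Pf4* made up 46.4% to 63.9% of that sum in mutants and 12% to 25.4% in controls. The share of *Cxcl16* was 6.84% to 13.9% in mutants and 32.4% to 42.1% in controls. *Cxcl2* held 20.8% to 38.9% and 22.5% to 33.0%, and these ranges overlapped. Shares within a sum are tied to each other and were given no test.

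**Figure D4:**
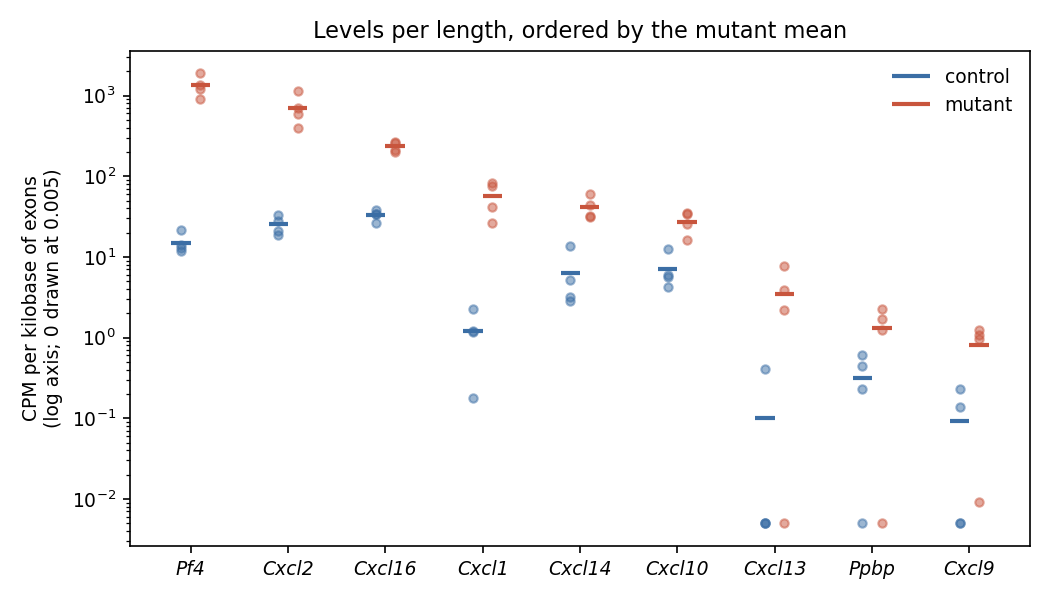
Level per length in CPM per kilobase of exons (log axis) for each library, ordered by the mutant mean, with bars at the group means and zeros drawn at 0.005. *Pf4* leads in mutants at 1340 and *Cxcl16* in controls at 33.3 CPM per kilobase.

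Receptors of these ligands were read from the same fit. Of 8 receptors and binding partners of CXC ligands, 7 were tested, 3 were called higher and 0 lower, against the background shares given above. *Cxcr3*, the receptor of CXCL9 and CXCL10, was measured at 18.9, 16.1, 25.6 and 15.7 CPM in mutants 1 to 4 and at 2.17, 7.10, 4.02 and 7.90 CPM in controls 1 to 4, without overlap (log2 fold change 1.85, SE 0.40, adjusted p = 0.0184, edgeR). *Cxcr4*, the receptor of CXCL12, was at 17.0 to 38.6 CPM in mutants and 3.62 to 8.24 CPM in controls (2.40, SE 0.36, adjusted p = 0.00284, edgeR). *Cxcr6*, the receptor of CXCL16, was called as well (2.03, SE 0.53, adjusted p = 0.0386, edgeR), with mutant replicate 4 at 11.3 CPM below control replicate 4 at 12.9 CPM.

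Other receptors stayed low in both groups. *Cxcr2*, which binds CXCL1 and CXCL2, was at 1.84 to 5.20 CPM in mutants and 1.88 to 11.3 CPM in controls and was not called (-0.63, SE 0.61, adjusted p = 0.552, edgeR). *Cxcr1* had no count in any library. *Cxcr5*, *Ackr1* and *Ackr3* were not called either, *Cxcr5*, the receptor of CXCL13, did not exceed 2.24 CPM, and *Ackr3*, a scavenger of CXCL12, did not exceed 7.76 CPM. Neutrophils carry CXCR2, and of 7 neutrophil markers edgeR called 0 higher and 1 lower, *Camp*, against the background shares given above. DESeq2 called 2 of these markers lower, *Camp* and *Ngp*. The marker sums were 267 to 806 CPM in mutants and 528 to 2340 CPM in controls.

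Genes that respond to NF-κB or to interferon were set beside the ligands, since both pathways are known to induce members of the family. Of 8 NF-κB response genes, 3 were called higher and 0 lower by edgeR, and 3 higher and 1 lower by DESeq2, with a median log2 fold change of 0.48. Over all tested genes, edgeR called 4.36% higher and 7.97% lower. DESeq2 called 10.1% of its tested genes higher, and 2378 genes lower. The 3 NF-κB response genes called higher encode cytokines. *Il1b* was measured at 122, 133, 430 and 426 CPM in mutants 1 to 4 and at 45.6, 78.3, 30.8 and 23.2 CPM in controls 1 to 4 (2.64, SE 0.55, adjusted p = 0.0147, edgeR). *Tnf* changed by 1.21 (SE 0.21, adjusted p = 0.00701, edgeR) and *Ccl3* by 1.43 (SE 0.22, adjusted p = 0.00306, edgeR). The inhibitors of the pathway gave no call, with *Nfkbia* at 0.67 (SE 0.28, adjusted p = 0.155, edgeR) and *Tnfaip3* at -0.28 (SE 0.47, adjusted p = 0.755, edgeR). *Il1a* lay at 90.0 to 183 CPM in mutants and 163 to 348 CPM in controls (-0.94, SE 0.27, adjusted p = 0.0563, edgeR).

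Of 8 interferon response genes, 3 were called higher and 0 lower by edgeR, and 6 higher by DESeq2, with a median log2 fold change of 1.73. The shares over all genes are those given for the NF-κB list. *Irf7*, a transcription factor of the type I interferon response, was measured at 95.4, 70.5, 123 and 67.5 CPM in mutants 1 to 4 and at 19.8, 33.2, 8.50 and 7.76 CPM in controls 1 to 4 (2.36, SE 0.48, adjusted p = 0.0128, edgeR). *Isg15*, a ubiquitin-like modifier, changed by 2.11 (SE 0.34, adjusted p = 0.00439, edgeR) and *Ifit3* by 1.71 (SE 0.36, adjusted p = 0.0155, edgeR), the latter with 51.2% of its 50-base words shared, mainly with *Ifit3b*. *Irf1*, *Ifit1*, *Rsad2* and *Gbp2* gave no call in edgeR's test.

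**Figure D5:**
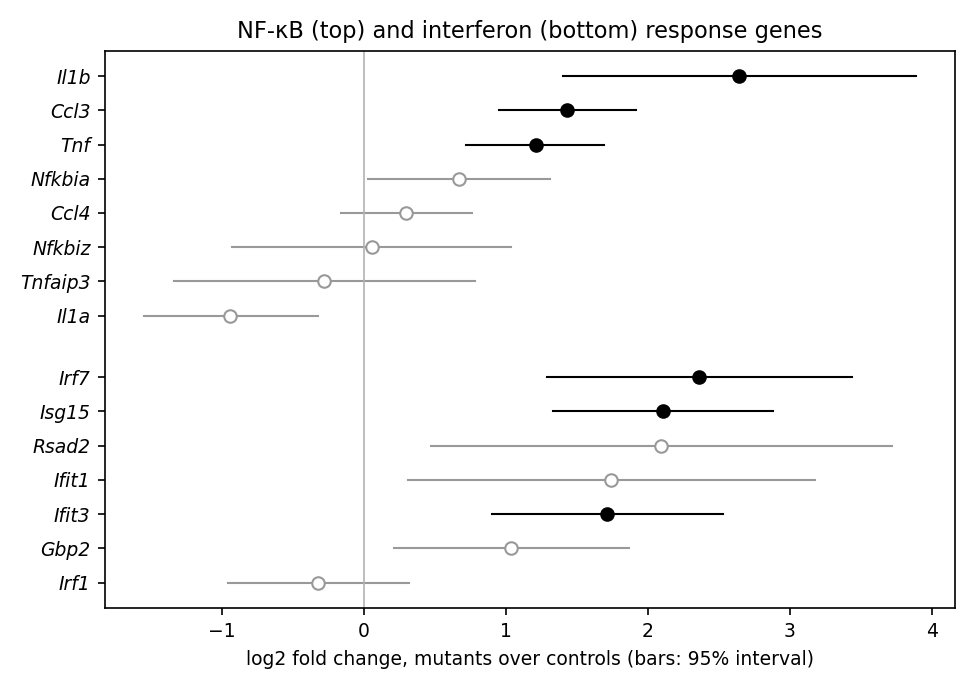
Log2 fold change of mutants over controls with its 95% interval for 8 NF-κB response genes (top) and 7 interferon response genes (bottom), with filled points for genes called by edgeR at an adjusted p under 0.05. In each list 3 genes are called, all to the right of 0.

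Among 10341 tested genes that averaged 3 log2 CPM or more, the 5 whose centred log2 CPM lay nearest to that of *Pf4* over the 8 libraries were *Clec4n*, *Id3*, *Ms4a7*, *Id1* and *Apoc1*. Their root mean square differences from *Pf4* were 0.548, 0.552, 0.568, 0.685 and 0.747 on the log2 scale. *Clec4n* encodes a C-type lectin, *Id3* and *Id1* inhibitors of helix-loop-helix transcription factors, *Ms4a7* a membrane protein and *Apoc1* an apolipoprotein. *Clec4n* averaged 285 CPM in mutants and 2.71 CPM in controls, and *Id3* averaged 2550 and 45.4 CPM. All 5 have large differences between the groups, which dominate this measure.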

How the data were processed

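Microglia of 4 mutant and 4 control mice were sequenced, 1 library per mouse. The authors used Rsubread for alignment against mm10, then featureCounts, per the Methods, and deposited unnormalised gene counts. Labels and Methods disagree on the library kit (Nextera XT or NEBNext Ultra II) and on single or paired ends. Both call the libraries unstranded. The authors' own DESeq2 table, with log2 fold changes and their standard errors, a mean and a test statistic as scores, and a p-value and adjusted p-value per gene, holds their comparison and was not used; columns of per-sample values left unused numbered 0.

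The deposited counts were filtered to the 20153 genes that reached 10 counts in 4 or more of the 8 libraries and tested with edgeR 4.0.16 in R 4.3.3 (TMM factors, glmQLFit and glmQLFTest, group as the only term) and adjusted by Benjamini and Hochberg's method over all of them. The biological coefficient of variation was 0.542, so spread between libraries rather than counting limits precision. With 1 library per mouse, spread between mice and spread from sample preparation cannot be told apart. Intervals are 95% intervals of the fit. CPM use TMM-scaled library sizes, and levels per length use the union of exons in GENCODE M21 (GRCm38), to which 55480 of 55573 genes matched. Floors of 3 counts stand for counting error alone, since reads without molecular identifiers need not come from separate molecules. The labels call the controls littermates but do not say which mice shared a litter, and each library is from a separate mouse.

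The members and lists were chosen with earlier results of these data known. Named genes are the members, the listed pathway and marker genes, *Smad2*, *Smad3*, sex-linked genes, protein-coding neighbours within 500000 bases of *Pf4* or *Cxcl10*, and the 5 genes nearest to *Pf4* in pattern. Some listed genes count in the list results but are not reported singly here. Endothelial and mural markers, 8 in all, gave 0 calls higher and 1 lower by edgeR, and 0 higher and 2 lower by DESeq2. Replicates were not duplicates of each other (chi-square per gene 107 to 276). Alternatives were DESeq2 1.42.0, RLE factors, library totals, other filters, a replicate block, each library left out, and a neural marker covariate chosen after seeing the data. The scripts were tested on simulated data. Tables and plots came from Python 3.11.15 with matplotlib 3.10.9, pandas 2.3.3, scipy 1.17.1 and numpy 2.4.6.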

Additional observations from a re-analysis of the deposited data

Results flagged for a closer look

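Dixon's test at the 95% level was applied to 76 groups of 4 libraries. These covered the tested CXC ligands, receptors, response genes and CXCL16 sheddases, with *Smad2* and *Smad3*. Chance gives about 1 in 20 for normally distributed values, and a group with only 1 library above 0 always passes the limit. By this test, 7 groups held a library far from the other 3. Control replicate 2 was the high library in 5 of them: *Cxcl13* at 0.468 CPM with the other controls at 0, *Cxcr2* at 11.3 against 1.88 to 3.10 CPM, *Cxcr4* at 8.24 against 3.62 to 4.28 CPM, *Cxcr5* at 2.24 against 0 to 0.307 CPM, and *Ccl3* at 451 against 344 to 357 CPM. The same library had the highest neutrophil marker sum, 2340 CPM against 528 to 1370 CPM in the other controls, and its part in these values was not tested. *Cxcl12* stood at 1.88 CPM in mutant replicate 4 against 0 to 0.156 CPM in the other mutants. *Ackr3* stood at 7.76 CPM in control replicate 4 against 2.40 to 3.07 CPM in the other controls.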

How the results depend on the processing

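The 6 members called higher stayed at 6 under every alternative run, and all 132 member values under 15 alternatives kept their direction and their side of the threshold. A minimum of 10 counts in all 8 libraries gave no value for *Ppbp*, *Cxcl9* and *Cxcl13*. Over all genes, 2485 were called, 878 higher and 1607 lower, and DESeq2 called 4281, of which 1903 higher. Leaving out 1 library gave 1567 to 2499 calls in all, 525 to 1024 higher and 1005 to 1587 lower. Calls in all fell by more than 1.5 times without control replicate 2 (1572) or 3 (1567), as did those higher (525 and 562) and those lower (1047 and 1005), and without mutant replicate 2 those higher fell to 573. The cause was not tested. With library totals in place of TMM, the median log2 fold change of all genes moved from 0.01 to 0.13. The share of calls that were higher was 35.3% with TMM, 37.5% with RLE, 44.1% with library totals and 44.5% with DESeq2. Replicate numbers were not taken to pair the mice, since the labels name no pairs. Deviations from the group means correlated at 0.166, 0.0183, 0.144 and 0.114 between same-numbered libraries. Of the libraries, 3 of 4 mutants and 3 of 4 controls correlated best with their own number. Whether same-numbered libraries share a litter or a preparation was not tested. A fit with a block for the replicate number called 2383 genes, 886 higher and 1497 lower, and it changed the call of 0 members. *Ppbp*, *Cxcl9* and *Cxcl13* each had at least 1 library with no more than 1 count in both groups, while other mutant libraries of similar depth held 62 to 416 counts.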
